A study of Mus musculus with 10 samples.

Results

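The 10 livers of this series were divided by the state of the circadian clock in their RNA rather than by genotype. Expected counts were summed by gene, and the 4 libraries in which the sum of Arntl exceeded the sum of Dbp form group A: S400D/S400D males 1, 2 and 3 and S400D/WT male 2. The other 6 libraries form group B: the S400D/S400D female, S400D/WT males 1 and 3, and WT/WT males 1, 2 and 3. All animals were C57BL6/N mice aged 2 months. Their livers carry 0, 1 or 2 copies of S400D, a change of serine to aspartate in the mitochondrial serine protease HtrA2/Omi, and messenger RNA was sequenced from whole tissue. No collection time, litter or feeding state is given in the labels, and nothing says how the numbered replicates arose, so p-values below measure only the spread between these samples. Among males, every S400D/S400D liver is in group A and every WT/WT liver in group B, so in that comparison clock state and genotype cannot be told apart. Heterozygous male 2 and the homozygous female break the tie, since the first is on the S400D/S400D side by clock state and the second on the WT/WT side.

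The circadian clock of a liver cell is a feedback loop. BMAL1, the product of Arntl, pairs with CLOCK or NPAS2 on E-box sequences and drives the Per, Cry and Nr1d genes, whose products later hold BMAL1 and its gene in check. DBP, TEF and HLF activate genes through D-box sequences at one phase and NFIL3 (E4BP4) occupies the same sequences at the opposite phase, while receptors of the ROR and REV-ERB families act on ROR elements. Through these factors, and through feeding, body temperature and glucocorticoids, the clock sets daily rhythms of hepatic sugar, lipid, haem and nucleotide metabolism.

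Dbp and Arntl, which chose the groups, are a description and no result. Levels are given as CPM, library-scaled counts with TMM normalisation, and values of group A follow the order homozygous males 1, 2 and 3 and then heterozygous male 2. Arntl stood at 17.7, 25.9, 37.9 and 31.4 CPM in group A and at 1.18 to 4.24 CPM (median 2.51) in group B. Dbp, which encodes the activator of D-box genes, stood at 4.70, 12.8, 1.26 and 6.02 CPM in group A and at 104 to 251 CPM (median 153) in group B. The log2 ratio of Arntl to Dbp was 1.91, 1.02, 4.91 and 2.39 in group A and lay between -7.73 and -5.21 in group B. The boundary is a log2 ratio of 0, the nearest library above it is homozygous male 2 at 1.02, and the nearest below it is WT/WT male 3 at -5.21. Group A thus comes closer to the boundary than group B. By a second clock pair, described below, homozygous male 1 would change group, although its level of each gene of that pair lay outside the range of group B.

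**Figure D1:**
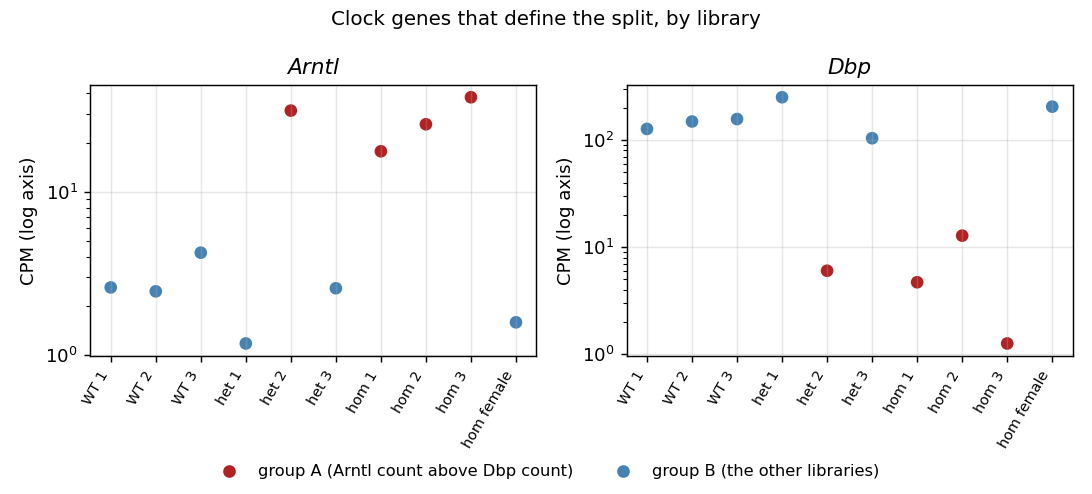
CPM of Arntl (left) and Dbp (right) on log axes, 1 point per library, with group A in red and group B in blue. Heterozygous male 2 stands with the 3 homozygous males at 31.4 CPM for Arntl and 6.02 CPM for Dbp, and the homozygous female stands with the wild types at 1.59 and 205 CPM.

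Depth was similar throughout, at 16240441 to 17264289 expected counts per library, with 14463 to 14882 genes counted at least once and 17.5% to 20.7% of all counts in the top 10 genes. Htra2 ranged from 12.3 to 17.1 CPM over the 10 libraries, which does not check the genotype labels because S400D alters the protein and not the gene's dose. Hepatocyte markers summed to 78134 to 135641 CPM in group A and to 83539.5 to 114537 CPM in group B. In bulk tissue, fewer cells of a type and less RNA per cell cannot be told apart. Markers of Kupffer cells and macrophages were on average higher in group A for 11 of 11 genes (median log2 difference 0.50) but overlapped for all 11, with summed levels of 431 to 509 CPM in group A and 176 to 553 CPM in group B. Endothelial markers had the same median, 0.50, with sums of 204 to 249.8 CPM against 107 to 258 CPM, and stellate cell markers had a median of 0.34 with sums of 343 to 548 CPM against 141 to 396 CPM. For the 4 homozygous livers minus the other 6, the medians of these 3 lists were similar, at 0.54, 0.39 and 0.31 in that order. Cd8a, a T cell gene at 0.839 CPM or less in every library, did not overlap between the groups, and neither did Ecm1, a matrix protein gene of stellate cells. Every gene of the macrophage, endothelial and stellate lists was above 0 in every library. The part of these cells in the gene differences below was not tested.

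Of 12954 genes with enough counts to compare, 291 (2.25%) were higher in all 4 libraries of group A than in any library of group B, and 276 (2.13%) were lower in all 4. Of these, 286 and 267 lie outside the lists of core clock genes and clock-controlled regulators. With a log2 difference of at least 1 added, 30 genes (0.232%) were higher and 32 (0.247%) lower, of which 27 and 24 lie outside the clock lists. The groups were chosen on values from these same libraries, so these counts carry no test. With 1 liver omitted the counts rose: without heterozygous male 2 they were 621 and 662, without homozygous male 1 524 and 551, without homozygous male 2 458 and 416, and without the homozygous female 453 genes were lower. A rise is built in, since fewer libraries can only add separating genes when the scaling is kept. All 291 and 276 genes remained under each omission. The split of the 567 genes by direction depends on scaling: 51.3% of them were higher in group A with TMM factors, 46.2% of such genes with DESeq2 size factors, 69.8% with library size alone and 78.8% with the deposited TPM values. The all-gene median of the difference was 0.00, 0.00, 0.04 and 0.08 on the log2 scale under these 4 scalings. Of the genes past 2-fold with TMM factors, 29 of the 30 higher and 26 of the 32 lower still did not overlap with TPM values. Counted anew under each scaling, genes past 2-fold were 31 higher and 32 lower with DESeq2 size factors. They were 35 and 25 with library size alone and 31 and 19 with TPM values.

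The core clock came with the 2 genes that chose the groups. Of its 13 genes, Arntl, Clock, Npas2 and Rora were higher in group A and Per2, Per3, Nr1d2 and Ciart lower, without overlap. Of the 6 regulators of the second list, Nfil3 was higher and Dbp, Tef, Hlf, Bhlhe40 and Bhlhe41 were lower without overlap. The separation of Arntl and Dbp is fixed by the rule, and without them 7 of 12 core clock genes and 5 of 5 regulators did not overlap, beside 4.38% of all genes in either direction. Per3, a repressor of the loop, stood at 3.37, 3.89, 1.62 and 3.54 CPM in group A and at 22.3 to 70.9 CPM (median 40.3) in group B. Nfil3, the repressor that shares its sites with DBP, stood at 43.0, 41.8, 77.2 and 42.2 CPM against 9.08 to 15.8 CPM (median 12.7), the mirror image. Cry1, Cry2, Nr1d1 and Per1 were among those that overlapped between the groups.

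Promoter windows from 250 bases before to 50 bases after the annotated start (RefSeq, GRCm38.p6) were found for 10376 of the 12954 genes and searched on both strands for an E-box (CACGTG), a D-box (TTATGTAA or TTACGTAA) and the ROR element RORE, none of which overlaps another in the windows shown. Coq10b, Slc20a1 and Homer2 are 3 non-clock genes described below whose windows hold such letters, and Per3 is shown beside them as a clock gene with a D-box pair. The 250 bases before each start are printed 5′ to 3′ on the gene's strand, with the motif letters in capitals.
Coq10b promoter, chr1:55052520-55052769, plus strand: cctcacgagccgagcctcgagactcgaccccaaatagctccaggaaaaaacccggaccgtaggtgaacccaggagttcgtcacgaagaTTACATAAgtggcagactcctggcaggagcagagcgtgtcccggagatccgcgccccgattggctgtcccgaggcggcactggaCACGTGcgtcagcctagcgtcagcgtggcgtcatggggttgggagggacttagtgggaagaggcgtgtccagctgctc
Slc20a1 promoter, chr2:129198523-129198772, plus strand: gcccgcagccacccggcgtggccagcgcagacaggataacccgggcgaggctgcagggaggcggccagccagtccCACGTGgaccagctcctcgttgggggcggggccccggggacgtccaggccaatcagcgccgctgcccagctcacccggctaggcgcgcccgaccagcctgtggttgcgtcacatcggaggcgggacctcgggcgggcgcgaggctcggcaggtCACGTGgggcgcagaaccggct
Homer2 promoter, chr7:81706926-81707175, minus strand: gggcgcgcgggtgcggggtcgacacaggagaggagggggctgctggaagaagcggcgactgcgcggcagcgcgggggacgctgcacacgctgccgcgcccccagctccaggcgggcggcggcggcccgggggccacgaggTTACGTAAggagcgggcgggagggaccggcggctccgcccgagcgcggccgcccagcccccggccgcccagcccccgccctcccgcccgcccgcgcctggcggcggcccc
Per3 promoter, chr4:151044666-151044915, minus strand: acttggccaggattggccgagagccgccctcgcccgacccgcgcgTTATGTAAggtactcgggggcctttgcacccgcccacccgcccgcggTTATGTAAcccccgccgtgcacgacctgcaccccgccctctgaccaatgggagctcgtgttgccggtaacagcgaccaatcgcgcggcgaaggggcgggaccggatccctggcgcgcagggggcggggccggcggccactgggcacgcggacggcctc

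The Coq10b window holds a D-box, read on the opposite strand, 162 bases before the start and an E-box 78 bases before it. Slc20a1 has E-boxes 175 and 22 bases before the start shown, Homer2 a D-box at 110 bases, and Per3 D-boxes at 205 and 158 bases. Slc20a1 and Homer2 each have a further annotated start, with windows at chr2:129206846-129207145 and chr7:81692916-81693215, in which none of these letters was found. Over all genes with a window, 1180 of 10376 (11.4%) held an E-box, against 45 of 223 (20.2%) of the genes lower in group A and 21 of 229 (9.17%) of those higher. A D-box was found in 97 windows of all genes (0.935%), in 6 (2.69%) of the lower genes and in 2 (0.873%) of the higher genes. ROR elements were rare, with 17 windows of all genes (0.164%) and 1 (0.437%) of the higher genes. That 1 gene was Arntl, which chose the groups. These are matches of letters in a short window that say nothing of binding, and no test was made of the shares.

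Outside the clock lists, the genes with the widest gap between the nearest libraries of the 2 groups, chosen as 12 in each direction, are described by role. Choline kinase alpha, encoded by Chka (chr19:3851585-3894369), performs the first step of phosphatidylcholine synthesis from choline. Its level was 65.6, 74.8, 108 and 120.5 CPM in group A and 16.4 to 28.0 CPM (median 23.2) in group B. The highest value was that of heterozygous male 2, far from both other heterozygotes, and the homozygous female at 21.3 CPM lay inside the range of group B. The mean log2 difference was 1.96 (SD 0.42 in group A, n = 4, and 0.26 in group B, n = 6), the largest of the 12 genes on the higher side. Gpcpd1 (chr2:132529082-132578248), whose product splits glycerophosphocholine, a breakdown product of the same lipid, went the other way. It stood at 71.6, 63.7, 31.2 and 44.2 CPM in group A and at 96.9 to 192 CPM (median 122) in group B, a log2 difference of -1.38.

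Mitochondrial genes were found on both sides. Clpx (chr9:65294251-65330658), the ATPase subunit of the matrix protease ClpXP, was at 322, 428, 515 and 283 CPM in group A against 63.0 to 169 CPM (median 133) in group B. All of group A exceeded the highest library of group B, heterozygous male 3, and heterozygous male 1 had the lowest level of the 10. Pdk4, a kinase that shuts pyruvate out of the citric acid cycle, was at 7.03, 8.66, 10.0 and 10.3 CPM against 0.517 to 4.03 CPM (median 2.48), with the homozygous female, at 4.03 CPM, the nearest library of group B. Of 27 PPARA target genes it alone did not overlap between the groups, a share of 3.7% that is near the 4.38% of all genes. Coq10b, which encodes a coenzyme Q binding protein of the inner membrane, was lower in group A at 18.9, 4.94, 13.2 and 6.84 CPM than in group B at 28.3 to 49.8 CPM (median 37.2). Within group A its level was uneven, with homozygous males 1 and 3 above homozygous male 2 and heterozygous male 2. Glrx5, a glutaredoxin of mitochondrial iron-sulphur cluster assembly, showed a small and even difference, at 48.3, 48.1, 48.2 and 51.5 CPM against 66.4 to 80.1 CPM (median 70.1). Hspd1, the chaperonin of the mitochondrial matrix, differed by -0.18 on the log2 scale without overlap.

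Carbohydrate and nucleotide metabolism gave 3 genes that were lower in group A. Gys2 (chr6:142422612-142473130), the liver isoform of glycogen synthase, was at 163, 135, 132 and 131 CPM in group A and 241 to 323 CPM (median 291) in group B. The homozygous female, at 323 CPM, had the highest level of the 10 livers. Slc2a5, the fructose transporter GLUT5, was at 3.66, 4.13, 1.86 and 3.36 CPM against 5.90 to 10.4 CPM (median 7.28). Upp2 (chr2:58566317-58795846), a uridine phosphorylase, was at 147, 231, 187 and 202 CPM against 437 to 682 CPM (median 553). The 4 values of group A lie close together, and the gap to the nearest library of group B, the homozygous female, was 0.92 on the log2 scale. On the higher side, Slc45a3, a sugar transporter, was at 89.0, 47.0, 98.0 and 48.5 CPM in group A and 14.2 to 27.6 CPM (median 18.1) in group B, with homozygous males 1 and 3 higher than homozygous male 2 and heterozygous male 2.

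The largest difference of the 24 genes was that of a protein turnover gene. Usp2 (chr9:44067021-44095627), a deubiquitinase, was at 8.48, 2.15, 4.79 and 0.826 CPM in group A and 15.0 to 55.6 CPM (median 33.6) in group B. Heterozygous male 2 had the lowest level and the homozygous female the highest of all 10, so that neither stood with its own genotype. The log2 difference was -3.17 (SD 1.20, n = 4, and 0.72, n = 6). Wee1 (chr7:110122059-110143299), the kinase that restrains entry into mitosis and a known E-box target of the clock, was at 0.871, 2.44, 1.74 and 2.06 CPM against 5.19 to 17.6 CPM (median 6.43). Of 24 genes of the cell cycle and its brakes, 3 were higher (Cdkn1a, Ccng2 and Btg1) and 2 lower (Wee1 and Ccne1) without overlap, beside 2.25% and 2.13% of all genes, and the list's median difference was -0.07. Ccng2, an atypical cyclin that slows division, was at 19.1, 22.1, 32.8 and 17.8 CPM in group A and 6.73 to 12.6 CPM (median 10.9) in group B, and the antiproliferative gene Btg1 at 85.7, 76.5, 133 and 72.5 CPM and 28.4 to 55.1 CPM (median 40.8). Both genes were higher in each of the 4 group A livers than in the other 6.

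The rest of the named genes have varied roles. Slc20a1, a sodium-phosphate transporter, was at 24.2, 18.4, 17.9 and 13.6 CPM in group A and 35.0 to 61.9 CPM (median 51.3) in group B. Inhbe, the subunit of the liver-secreted activin E, was at 6.91, 18.5, 15.6 and 20.6 CPM against 27.7 to 59.2 CPM (median 48.6), lowest in homozygous male 1. Homer2, a scaffold protein, was at 17.5, 17.1, 20.3 and 19.0 CPM against 26.1 to 43.4 CPM (median 31.5). Fam102a was also lower, with a log2 difference of -0.85. Higher in group A were Lgalsl (a galectin-like protein) by 1.41, Mpzl1 (a cell-surface glycoprotein) by 1.54, Ypel2 by 1.53, Abtb2 by 1.36, Lrfn3 by 1.33, Klhdc7b by 1.16 and Pnkd by 0.98. All 24 genes kept separate groups under each of the 4 scalings.

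**Figure D2:**
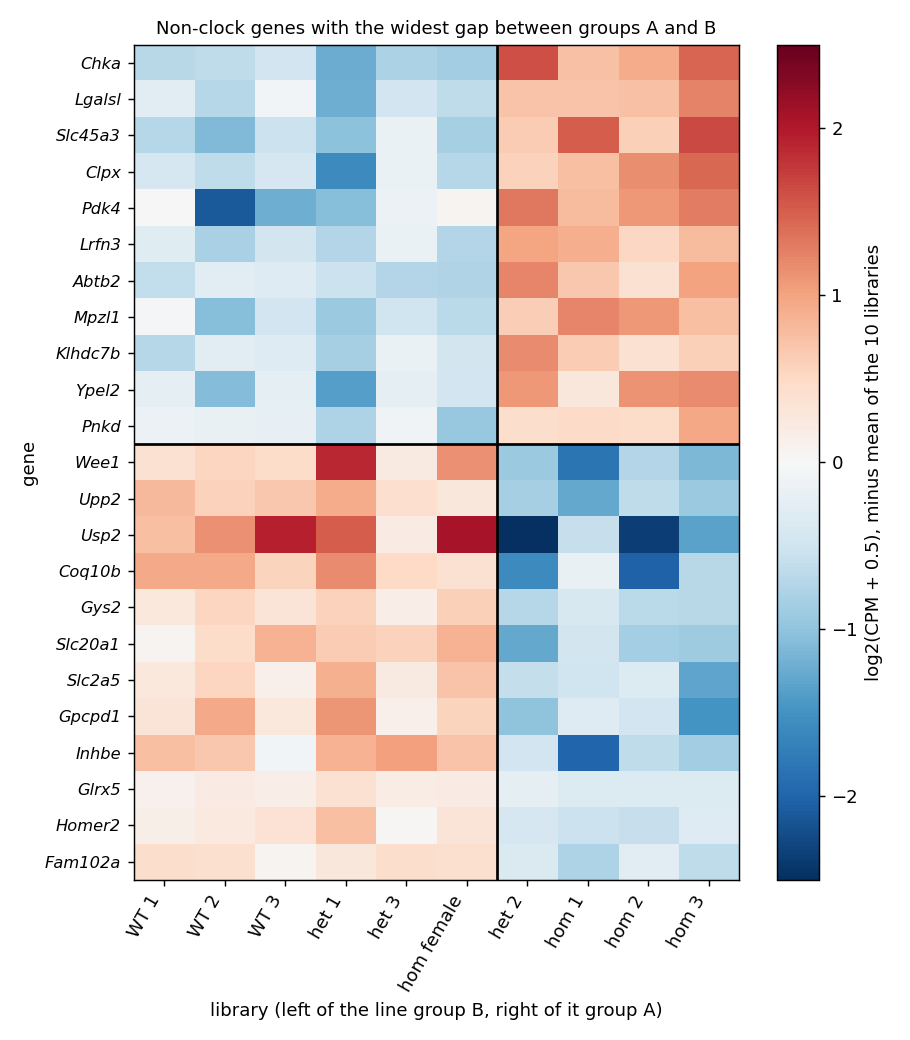
Log2(CPM + 0.5) of 23 of the 24 non-clock genes minus each gene's mean over the 10 libraries (red above, blue below), with group B left of the vertical line and group A right of it. Since the genes were chosen for separate groups, heterozygous male 2 has the colours of the homozygous males and the homozygous female those of the wild types, for the 11 genes above the horizontal line and the 12 below it.

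The 2 libraries that break the tie give a difference within each genotype, again as a description. Among heterozygotes, male 2 was past 2-fold of the mean of males 1 and 3 for 272 genes (2.1%), and the mean of the homozygous males was past 2-fold of the homozygous female for 513 (3.96%). Both differences were past 2-fold and group A higher for 51 genes (0.394%), 46 of them outside the clock lists, and group A lower for 50 (0.386%), 42 of them outside. Opposite directions were found for 5 genes (0.0386%) and 8 genes (0.0618%). Of the 24 genes above, 10 of 12 on the higher side and 9 of 12 on the lower side were past 2-fold in both; their directions here are fixed by their choice across the same gap. Chka differed by 2.62 among heterozygotes and 1.90 among homozygotes, Clpx by 1.45 and 1.83, Usp2 by -4.20 and -3.48, and Upp2 by -1.50 and -1.24, all on the log2 scale. The homozygote difference also holds sex, which cannot be told apart from clock state there.

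**Figure D3:**
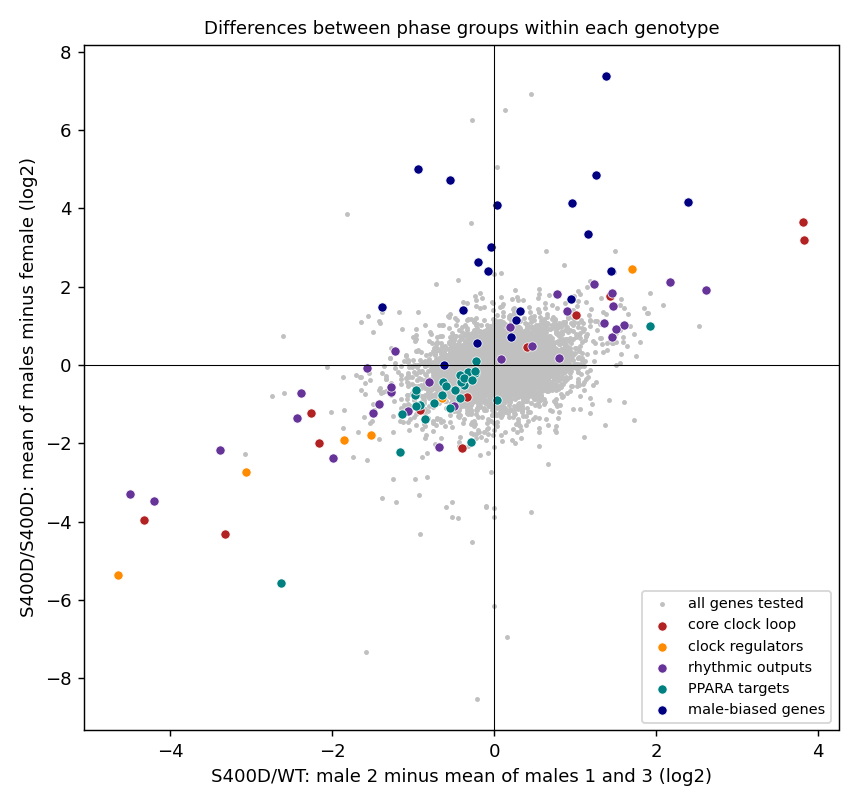
Each point is 1 of 12954 genes, with the log2 difference of heterozygous male 2 from the mean of the other 2 heterozygotes on the horizontal axis and that of the homozygous males' mean from the homozygous female on the vertical axis. Core clock genes, clock regulators and many rhythmic outputs run from lower left to upper right, male-biased genes spread upward on the vertical axis, and 25 of 27 PPARA targets lie below 0 on each axis.

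The labelled comparisons give tests. Between S400D/S400D and WT/WT males, edgeR's quasi-likelihood test called 0 of 12427 genes (0%) at an adjusted p under 0.05, with 1852 genes at an unadjusted p under 0.05; limma-voom called 0 and DESeq2 308. Without WT/WT male 1 edgeR called 18 genes, and without homozygous male 2 it called 2. The adjusted p of the 24 genes in edgeR ran from 0.147 to 0.349 on the higher side and from 0.167 to 0.291 on the lower side. Slc45a3 had a log2 fold change of 2.10 (SE 0.42, edgeR adjusted p = 0.147), Upp2 -1.62 (SE 0.37, edgeR adjusted p = 0.167), and Chka 1.68 (SE 0.65, edgeR adjusted p = 0.284). In each gene 3 of 3 homozygous males were on 1 side of all 3 wild types, which the choice of genes with separate groups had fixed. The 24 genes were chosen on these same libraries, so their p-values are not independent of that choice. Between the homozygous female and the homozygous males, edgeR called 10 of 12954 genes (0.0772%), with the single female library assumed to vary like the males. Sult2a1, Sult2a2, Sult2a7 and Cyp2b13 rose in the female and the Y-linked Ddx3y, Kdm5d, Eif2s3y and Uty fell, together with Slc25a33 and Cyp4a12b; reads of Sult2a and Cyp4a12 genes may be shared with near-identical copies.

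Among genes that separate homozygous from wild-type males without overlap and by at least 2-fold, the tie-breaking libraries sort the pattern. Of 108 such genes that were higher in homozygous males, 36 (33.3%) had heterozygous male 2 on the homozygous side and the female on the wild-type side, as clock state would place them. The reverse, as genotype would place them, was found for 33 (30.6%), and 17 had both on the homozygous side and 22 both on the wild-type side. Of 138 lower genes, 27 (19.6%) followed clock state, 64 (46.4%) genotype, 22 had both on the homozygous side and 25 both on the wild-type side. The counts by clock state include Arntl and Dbp, which chose the groups, and other clock genes. They are therefore not independent of that choice. With differences of any size, 330 of 1261 higher genes (26.2%) and 302 of 1386 lower genes (21.8%) followed clock state. Genotype was followed by 280 (22.2%) and 392 (28.3%), and 12954 genes were tested in all. Of all members of the clock lists, 8 of 13 core clock genes and 6 of 6 regulators followed clock state. Arntl and Dbp, which chose the groups, are among them. The side of a library is read from the midpoint between the nearest homozygous and wild-type male, so every gene falls in 1 of these 4 classes whatever its spread. The female's side also holds her sex, which cannot be told apart from her genotype or clock state. Of 20 male-biased genes, 11 followed genotype and 0 clock state when differences of any size were taken. All 20 were lower in the homozygous female than in the homozygous males' mean. No such gene that was lower in homozygous males could therefore follow clock state, and the 2 counts are not a contrast.

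The list of 32 liver genes known for daily rhythms outside the clock had 6 members higher in group A (Lonrf3, Clpx, Mreg, Chka, Slc45a3 and Ppard) and 8 lower (Usp2, Wee1, Alas1, Upp2, Coq10b, Gys2, Tspan4 and Klf10). Those are 18.8% and 25.0% of the list, beside 2.25% and 2.13% of all genes, and the list's median difference was 0.00. The list was drawn up with results of these data known, so its count is not independent. By the labelled genotype split, with the 4 homozygous livers against the other 6, 1 of the 32 separated (Klf9, higher), near the shares of all genes, which were 1.8% higher and 3.03% lower. Alas1, the rate-limiting enzyme of haem synthesis, was at 128, 52.4, 170.1 and 38.0 CPM in group A against 171 to 611 CPM (median 361) in group B. Ppard, a nuclear receptor of lipid metabolism, was at 9.17, 9.82, 21.0 and 18.8 CPM against 5.59 to 6.98 CPM (median 5.86), and Lonrf3 at 5.57, 8.78, 16.4 and 9.02 CPM against 1.85 to 4.42 CPM (median 2.67). Alas1 nearly touched between the groups, at homozygous male 3 and WT/WT male 3.

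**Figure D4:**
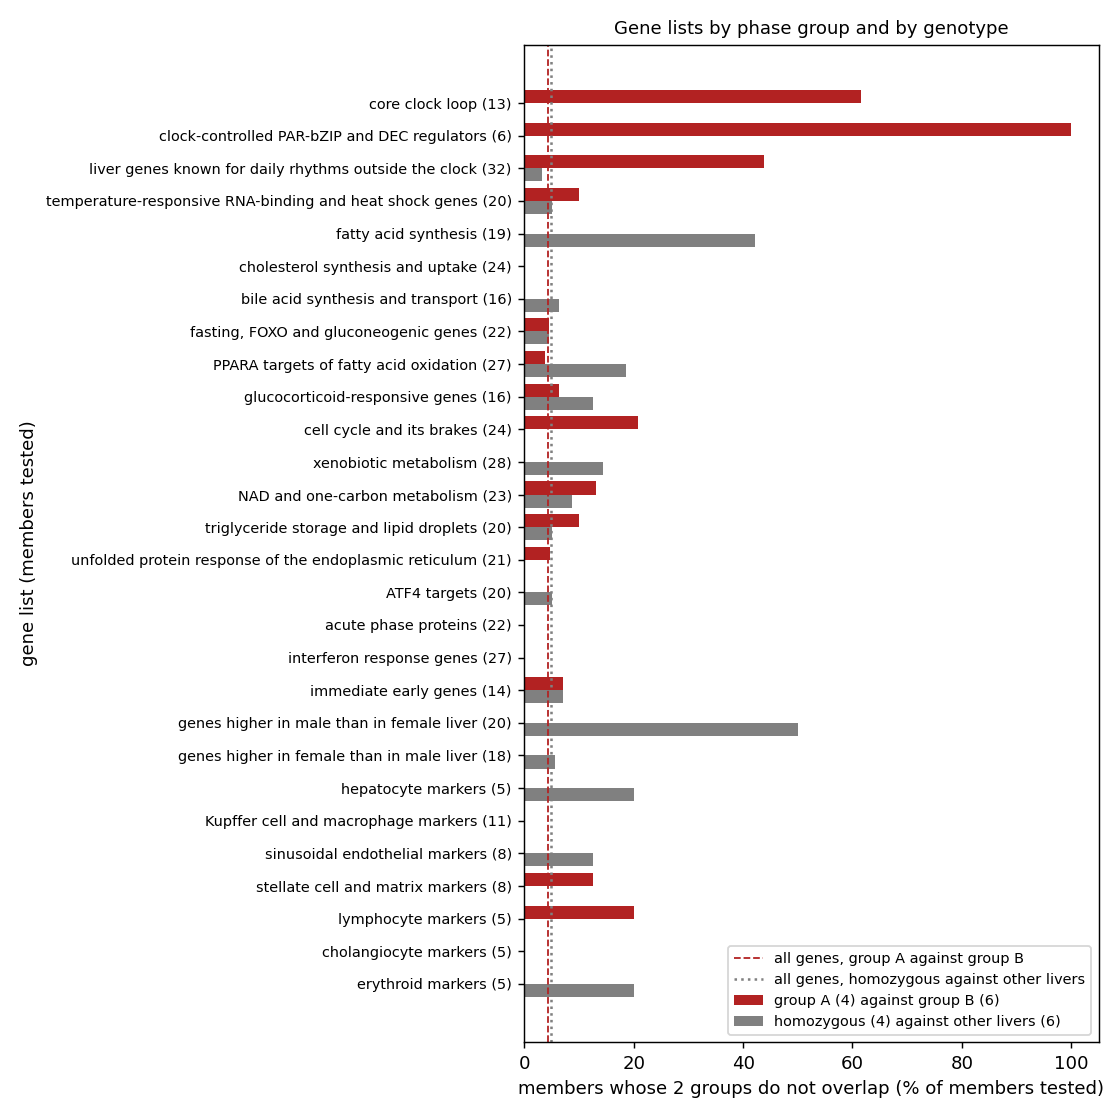
Share of each gene list whose members do not overlap between groups, for group A against group B (red) and for the 4 homozygous livers against the other 6 (grey), with the share of all genes as vertical lines and the number of members tested in brackets. The clock lists and the rhythmic outputs have long red bars, while fatty acid synthesis and male-biased genes have grey bars and no red bar. For male-biased genes, all 20 were lower in the homozygous female, of group B, than in the homozygous males' mean. None of them could therefore be lower in group A without overlap.

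Metabolic lists were counted in the same 2 splits. Of 19 fatty acid synthesis genes, 0 separated by clock state, which for a list of this size is near the 4.38% of all genes. By genotype, 8 (Fasn, Acly, Me1, Thrsp, Elovl6, Srebf1, Pnpla3 and Fads2) were lower in all 4 homozygous livers than in the other 6. That was so for 392 of all genes (3.03%). The genotype counts also turn with scaling: of the genes that separated, 37.3% were higher in the homozygous livers with TMM factors, 51.1% with library size alone and 87.6% with TPM values. Under these 3 scalings 8, 9 and 6 of the 19 fatty acid synthesis genes were lower. With a log2 difference of at least 1 added, 71 genes (0.548%) were lower and 32 (0.247%) higher in all 4 homozygous livers. The median of the list was -1.26 for homozygous livers minus the rest and -0.73 for group A minus group B. All 19 genes were on average lower in group A than in group B. Thrsp, a regulator of fat synthesis, was at 6.27, 45.6, 63.3 and 89.0 CPM in homozygous males 1, 2 and 3 and the female and at 166 to 743 CPM (median 444) in the other livers. Heterozygous male 2 had the lowest level of those 6, and the female the highest of those 4. Higher in all 4 homozygous livers were 233 genes of all (1.8%), and among them were 5 of 27 PPARA targets of fatty acid oxidation (Cyp4a10, Cyp4a14, Cyp4a31, Acot1 and Acadm). Without the homozygous female, 583 genes were higher and 771 lower by genotype.

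PPARA targets were lower on the group A side within each genotype, while the groups as a whole overlapped. In heterozygous male 2, 25 of 27 were lower than the mean of the other heterozygotes (median -0.48), and 25 of 27 were lower in the homozygous males than in the homozygous female (median -0.64). For group A minus group B the median was -0.17, and for homozygous livers minus the rest 0.33. Ppara itself, the fatty acid receptor, was at 189, 219, 205 and 152 CPM in group A and 197 to 350.4 CPM (median 272) in group B. Cpt1a, which admits fatty acids to mitochondria, was at 454, 379.8, 308 and 235 CPM against 325 to 769 CPM (median 413). In both genes the homozygous female had the highest and heterozygous male 2 the lowest of the 10 livers. Ppara and Cpt1a were named after their values were seen, as defining members of the list.

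Cholesterol synthesis genes differed in sign between the tie-breaking comparisons. Heterozygous male 2 was above the other heterozygotes for 21 of 24 genes (median 0.68), while homozygous males were below the homozygous female for 19 of 24 (median -0.48). None of the 24 separated in either split, beside 4.38% of all genes by clock state and 1.8% higher and 3.03% lower by genotype. Male-biased genes separated by genotype for 10 of 20, all lower in homozygous livers (median -2.28), beside the 3.03% of all genes. By clock state 0 of the 20 separated. All 20 were lower in the homozygous female than in the homozygous males' mean, so none could be lower in group A without overlap. In both counts the female's sex cannot be told apart from her genotype or clock state. The list's median was 0.12 in heterozygous male 2 against the other heterozygotes and, with the female left out, -1.38 in the homozygous against the wild-type males. Of the remaining lists, glucocorticoid-responsive genes were on average higher in group A for 15 of 16 (median 0.50), and 1, Cdkn1a, separated. Their median was 0.57 for homozygous livers minus the rest. Interferon, acute phase, bile acid, xenobiotic and ATF4 lists, with 16 to 28 genes tested in each, had 0 members that separated by clock state. Over all genes 4.38% separated by clock state, and in lists of this size 0 or 1 member is near that share.

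Temperature-responsive genes, fasting genes and others gave single members. Dnaja1, a heat shock co-chaperone, was at 171, 121, 179 and 157 CPM in group A and 207 to 271 CPM (median 231) in group B, and with Hspd1 it made 2 of 20 temperature-responsive genes. Fbp1, an enzyme of gluconeogenesis, was at 590.4, 766, 823 and 690 CPM against 824 to 1228 CPM (median 1004), the 1 of 22 fasting genes that separated, and its nearest libraries were 823 and 824 CPM. Xbp1, a transcription factor of the unfolded protein response, had a log2 difference of -0.82, the 1 of 21 genes of its list. Cideb and Dgat2, of lipid droplets and triglyceride synthesis, had log2 differences of -0.27 and -0.28, 2 of 20 genes tested. Shmt2 and Tyms, enzymes of one-carbon metabolism, each differed by -0.23, and Ier5, an immediate early gene, by 0.78. Of all genes tested, 4.38% separated in either direction.

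Group A was not uniform. Several genes with a known daily or feeding-dependent course, chosen after their values were seen, were high in homozygous males 1 and 3 and low in homozygous male 2 and heterozygous male 2. Per1, a repressor of the loop that also responds quickly to glucocorticoids, was at 50.8, 8.43, 32.5 and 5.49 CPM in group A and 20.6 to 66.3 CPM (median 39.7) in group B. Igfbp1, a fasting-induced binding protein of insulin-like growth factors, was at 329, 64.3, 280 and 36.8 CPM against 14.7 to 68.8 CPM (median 59.4). Lpin1, a phosphatidate phosphatase and coregulator of fat oxidation, was at 306, 69.2, 291 and 55.8 CPM against 119.9 to 231 CPM (median 143). In Igfbp1 and Lpin1, homozygous males 1 and 3 were above all of group B, and for Lpin1 the other 2 livers of group A were below all of it. Cdkn1a, the cell cycle inhibitor p21, was at 28.1, 9.07, 26.5 and 4.72 CPM against 0.312 to 3.74 CPM (median 1.83), with homozygous males 1 and 3 again above the other 2. Noct, a rhythmic phosphatase of nicotinamide dinucleotides, was at 16.5, 1.98, 14.4 and 4.25 CPM against 13.5 to 60.4 CPM (median 47.5), and Ddit4, an inhibitor of mTOR signalling, was at 59.3, 4.65, 22.7 and 7.08 CPM against 2.87 to 9.95 CPM (median 5.95). Tsc22d3 (GILZ), a glucocorticoid target, was at 135, 51.5, 234 and 105 CPM against 50.4 to 208 CPM (median 150.1), again with homozygous males 1 and 3 highest in group A and with a smaller step from homozygous male 1 to heterozygous male 2.

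**Figure D5:**
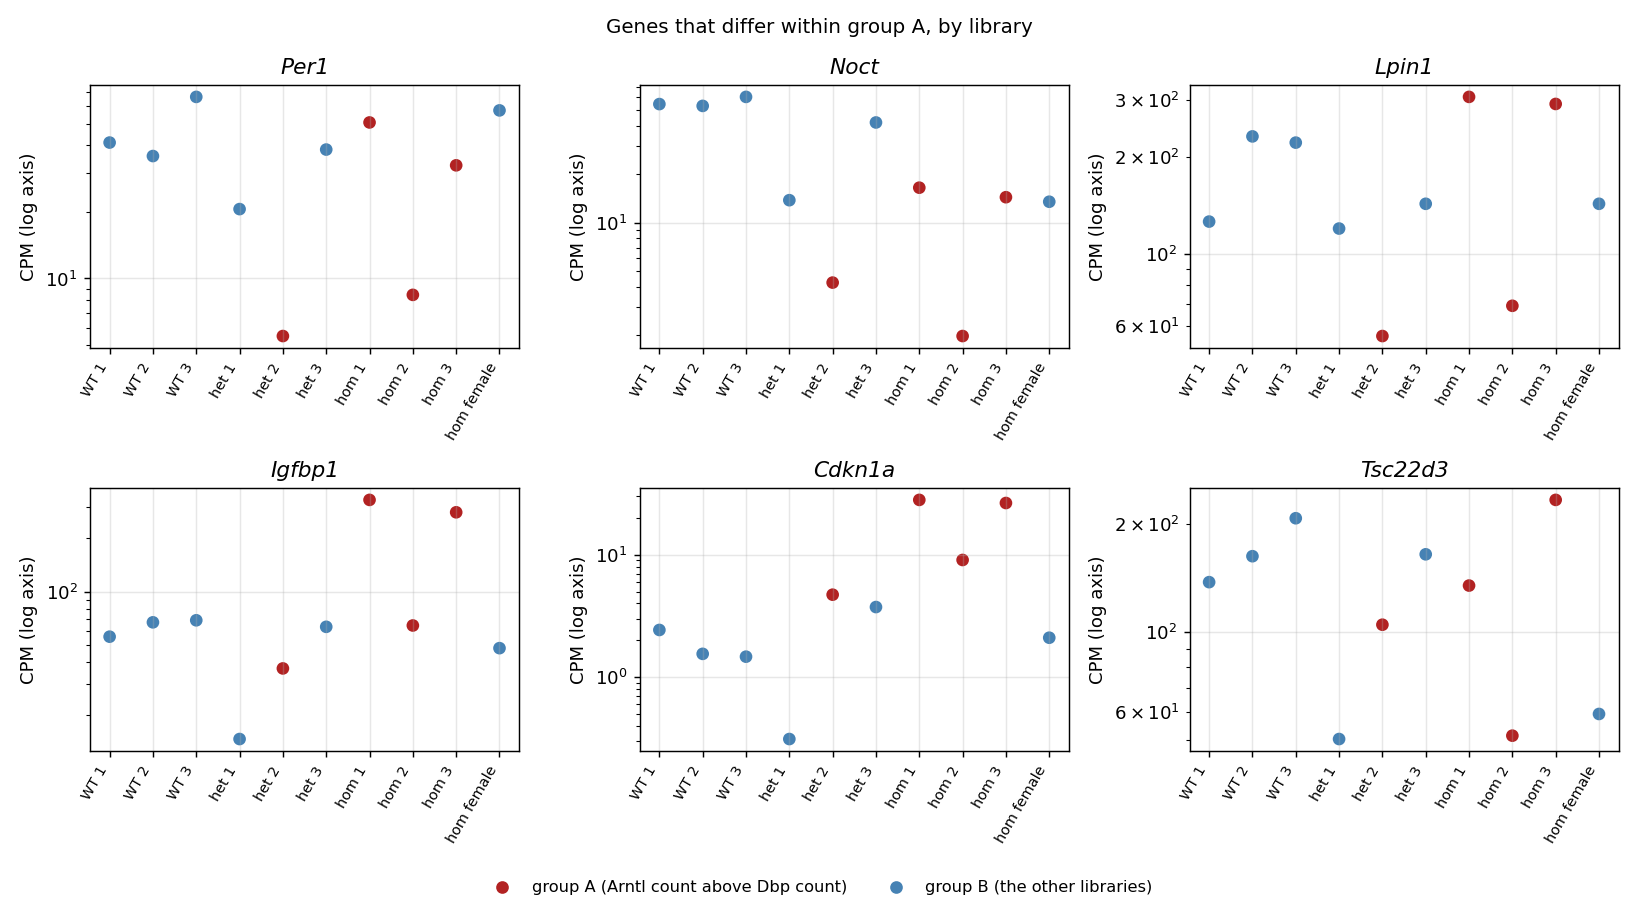
CPM on log axes of 6 genes in the 10 libraries, with group A in red and group B in blue. In all 6 genes homozygous males 1 and 3 stand above homozygous male 2 and heterozygous male 2, with the narrowest step in Tsc22d3.

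Homozygous male 1 stood apart in further genes, also chosen after their values were seen. Por, the electron donor of microsomal cytochromes P450, was at 891, 215, 244 and 116 CPM in group A and 199.6 to 724 CPM (median 435) in group B, so that homozygous male 1 exceeded all other livers. Fkbp5, a glucocorticoid-induced chaperone, was at 269, 47.4, 59.1 and 11.8 CPM against 22.9 to 114 CPM (median 63.6). Scd1, a fatty acid desaturase, was at 112, 5827, 3971 and 3385 CPM against 2345 to 10838 CPM (median 5768), lowest by far in homozygous male 1. By the counts of a second clock pair, Npas2 above Per3, homozygous male 1 would join group B. It had 37 counts of Npas2 and 58.01 of Per3. Its level of each gene still lay outside the range of group B. Npas2 was at 2.15 CPM against 0.0 to 0.553 CPM, and Per3 at 3.37 CPM against 22.3 to 70.9 CPM. With this second split, 311 genes were higher in the remaining 3 libraries and 333 lower.

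The 10 livers were also compared by principal component analysis of 11046 genes outside the clock lists. Component 1, with 34.6% of the variance, placed the homozygous livers at 37.2, 13.6, 18.2 and 27.0 (the female last) and the other livers between -28.7 and -3.7, with heterozygous male 2 at -16.1. Component 2, with 20.2%, followed neither genotype nor clock state, with homozygous male 1 at -29.5, WT/WT males 2 and 3 at -19.6 and -19.0 and the other livers at -6.8 or higher. On component 3, with 15.5%, group A lay between 7.2 and 17.6, heterozygous male 2 at 17.3, and group B between -8.3 and -1.3 apart from the female at -34.3. The homozygous livers thus did not overlap the others on component 1, nor group A group B on component 3, where the female's distance from the rest of group B cannot be told apart from sex.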

How the data were processed

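Whole-liver messenger RNA of 10 mice was sequenced, with 3 WT/WT, 3 S400D/WT and 3 S400D/S400D males and 1 S400D/S400D female. The authors deposited, per the file headers, expected counts (estimated reads per transcript, not normalised) and TPM values (scaled by the authors to transcript length and library total) for 77712 transcripts. Another 19 columns of the table were not used. HISAT, Bowtie2 and the build GRCm38.p6 are listed in the submitters' processing notes; versions, roles and strand use were not given in the sources used here.

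Expected counts were summed to 19271 genes, of which 19214 matched RefSeq and 57 did not; 94.5% of nonzero sums lay within 0.05 of a whole number, and sums were rounded for testing. Near-identical genes (Mup, Cyp4a12, Sult2a) share reads. CPM used TMM factors of edgeR 4.0.16 (R 4.3.3), and log2 differences are means of log2(CPM + 0.5). A gene was counted for a split when the groups' CPM did not overlap. The split was made on these libraries and has no test. Labelled contrasts used edgeR's quasi-likelihood test with Benjamini-Hochberg adjustment at 0.05, on 12427 genes in the 9 males (6 residual degrees of freedom) and on 12954 genes in all 10 libraries, where the lone female is assumed to vary like the males. The scripts were checked on simulated data. Python 3.11.15 with pandas 2.3.3 and numpy 2.4.6 did the rest.

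Members and the 29 gene lists were chosen with earlier results of these data known. The text names, outside the clock lists, the 12 genes per direction with the widest gap between nearest libraries with a mean of 1 CPM or more in the higher of both groups, up to 4 separating members per list, the 5 genes per direction with the widest gap by genotype, and called genes. Some genes that this rule chose are left out of the text. Other genes were named after their values were seen: Clock, Rora, Nr1d2, Ciart, Cry1, Cry2, Nr1d1, Tef, Hlf, Ccne1, Alas1, Ppard, Lonrf3, Mreg, Tspan4, Klf10, Klf9, Ppara, Cpt1a, Per1, Igfbp1, Lpin1, Noct, Ddit4, Tsc22d3, Por, Fkbp5, Scd1 and list members given by direction only. Alternatives were DESeq2 1.42.0, limma-voom (limma 3.58.1), DESeq2 size factors, library size alone, TPM, a pseudocount of 0.1, a log2 difference of at least 1, a split on Npas2 above Per3, other filters and fits, a replicate block and omission of each library.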

Additional observations from a re-analysis of the deposited data

Results flagged for a closer look

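Of 92 gene and group combinations looked at, 9 had a library far from the others of its group by Dixon's ratio, where chance gives about 1 in 20. Homozygous male 3 was the highest of group A for Lgalsl at 29.4 CPM (next 20.6), for Pnkd at 206 CPM (next 147) and for Nfil3 at 77.2 CPM (next 43.0). Homozygous male 1 was the lowest of group A for Ypel2 at 23.5 CPM (next 41.0) and the highest for Gys2 at 163 CPM (next 135). Heterozygous male 2 was the highest of group A for Glrx5 at 51.5 CPM (next 48.3). In group B, heterozygous male 1 was the highest for Glrx5 at 80.1 CPM (next 71.1) and for Cideb at 203 CPM (next 193), and WT/WT male 3 the lowest for Inhbe at 27.7 CPM (next 46.6).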

How the results depend on the processing

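Counts of separating genes moved more than single genes did. Omitting 1 library gave 328 to 621 genes higher and 300 to 662 lower in group A, and 261 to 583 higher and 427 to 771 lower in the homozygous livers; fewer libraries can only add separating genes when the scaling is kept. Requiring a log2 difference of at least 1 left 30, 32, 32 and 71 genes in that order. Library size alone gave 155 genes lower in group A. With TPM values 92 genes were lower in group A, and 834 were higher and 118 lower in the homozygous livers. For S400D/S400D against WT/WT males DESeq2 made 308 calls (114 higher, 194 lower), and for the homozygous female against the homozygous males 99; omission of 1 library gave 0 to 18 and 7 to 11 calls with edgeR. Of 644 values of 46 named genes under 14 alternatives each, 634 stayed within the replicate spread and 10 moved (Klhdc7b, Pnkd, Glrx5, Npas2, Bhlhe41, Hspd1 and Cd8a, under TPM or a pseudocount of 0.1), and 0 reversed. The cause was not tested. All 116 list medians recomputed with library size alone, with TPM, without heterozygous male 2 or without the homozygous female stayed within the spread. Depth limits low genes such as Klhdc7b, at 0.0624 to 1.77 CPM.

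The replicate numbers do not pair the samples: correlations of same-numbered deviations ran from -0.4381 to 0.1951 over the 3 pairs of genotypes. Adding the replicate block to the fit of the males left the comparison of S400D/S400D with WT/WT at 0 calls in edgeR, and 1591 genes then had an unadjusted p under 0.05.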

Other observations

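Other genes were named by the widest gap between the 4 homozygous livers and the other 6, a choice that sets the female with her genotype and heterozygous male 2 apart from it. Zbtb16, a transcriptional repressor and glucocorticoid target, was at 54.9, 66.9, 55.1 and 39.0 CPM in homozygous males 1, 2 and 3 and the female, and heterozygous male 2, at 23.9 CPM, was the highest of the other 6. Serpina7, the thyroxine-binding globulin, was at 142, 116, 156 and 129 CPM in those 4 livers and at 23.2 CPM in heterozygous male 2, the lowest of the other 6. Fabp5, a fatty acid carrier, was at 2.44, 6.74, 3.00 and 8.91 CPM against 20.9 CPM in heterozygous male 2, and Nudt7, a peroxisomal coenzyme A diphosphatase, at 39.1, 178, 119 and 93.3 CPM against 579 CPM. For Zbtb16 heterozygous male 2 stood above the other heterozygotes, at 8.42 and 5.02 CPM, and above the wild types, at 3.94 to 12.5 CPM.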
